A study of Mus musculus with 6 samples.

Results

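Malat1, Neat1, Meg3, Rian, Mirg, Miat, Snhg11 and Kcnq1ot1 are known as long noncoding RNAs (lncRNAs) of the nucleus, and they were examined in the sensory epithelia of the newborn mouse inner ear. The 8 symbols were chosen by a measured value, the wide spread of CPM (counts scaled to the library's total on genes) between replicate libraries, so the spread reported for them is a description and not a finding. Of the 8 symbols, 7 had a row among the 39179 genes of the count files, and 6 passed the filter of 1 CPM or above in no fewer than 3 libraries, among 14723 genes tested. Kcnq1ot1 had no row under its identifier and was not measured here, and Rian was all but absent.

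The cochlea is the organ of hearing and the vestibule the organ of balance, and in each the sensory epithelium holds hair cells and their supporting cells. RNA was taken for sequencing from 3 cochlear and 3 vestibular libraries of wild-type, untreated C57Bl/6J mice at postnatal day 0 (P0), with males and females pooled and tissue from at least 20 ears behind each label. The study's methods give 20 inner ears of 10 mice as the source of the RNA of both tissues, and neither they nor the labels say whether the 3 libraries of a tissue came from separate pools of animals, so a p-value measures only the spread between these libraries, which may be technical. The libraries were made with a stranded mRNA kit, which captures RNA by its poly(A) tail, and held 24464483 to 33664793 counts on genes.

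These RNAs do different work in the nucleus. Malat1 is an abundant RNA of nuclear speckles, the compartments where splicing factors gather, and Neat1 is the scaffold around which paraspeckles assemble. Meg3, Rian and Mirg are transcribed in the same direction from the maternal chromosome of the imprinted Dlk1-Dio3 domain, and Rian and Mirg carry clusters of snoRNAs and miRNAs in their introns and exons. Miat, also called Gomafu, forms spots of its own in the nuclei of neurons and retinal cells, Snhg11 is a host gene of snoRNAs that neurons express, and Kcnq1ot1 runs antisense through Kcnq1 and silences its neighbours on the paternal chromosome. Where in the cell these RNAs lay was not measured, because RNA of whole tissue was sequenced.

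The loci, in GRCm38 as annotated by GENCODE vM21, lie on 5 chromosomes. Malat1 (ENSMUSG00000092341, chr19:5795690-5802672, minus strand) and Neat1 (ENSMUSG00000092274, chr19:5824708-5845478, minus strand) are neighbours, and the longest transcript of each is a lone exon, of 6983 and 20771 bases. Meg3 (ENSMUSG00000021268, chr12:109541001-109571726), Rian (ENSMUSG00000097451, chr12:109603940-109661716) and Mirg (ENSMUSG00000097391, chr12:109729764-109749460) follow each other on the plus strand of chromosome 12. Miat (ENSMUSG00000097767, chr5:112213228-112229395, minus strand) has 7 exons and Snhg11 (ENSMUSG00000044349, chr2:158375638-158386145, plus strand) has 5, in the longest transcript. Kcnq1ot1 (ENSMUSG00000101609, chr7:143203458-143296549, minus strand) lies inside Kcnq1. Snhg11 is listed as protein coding in vM21 and as a lncRNA by RefSeq. The longest transcripts of Neat1, Meg3, Miat and Malat1 exceeded those of 99.9%, 99.4%, 96.3% and 90.5% of the tested genes with an annotation, against 84.4% for Snhg11 and 58.0% for Mirg.

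The 3′ ends differ among these RNAs, which bears on what a poly(A)-based library counts, and the ends of Malat1 and Neat1 are therefore shown first. Malat1 and the long isoform of Neat1 are known to be cut by RNase P. After the cut, a triple helix of a U-rich element with an A-rich tract stands in place of a poly(A) tail. The end of the short Neat1 isoform is not shown. The stretches below were read from the vM21 transcripts, 5′ to 3′, and the capitals mark the tract AAAAAGCAAAA, the last 11 bases of the Neat1 transcript, which were then searched for in the others. The Malat1 stretch is chr19:5795982-5796091 and the Neat1 stretch chr19:5824708-5824817, both on the minus strand of GRCm38.
Malat1: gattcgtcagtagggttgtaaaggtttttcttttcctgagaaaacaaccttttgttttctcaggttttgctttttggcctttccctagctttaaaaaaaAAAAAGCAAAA
Neat1: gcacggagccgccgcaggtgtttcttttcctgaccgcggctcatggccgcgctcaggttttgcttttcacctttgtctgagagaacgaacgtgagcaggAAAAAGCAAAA
In Malat1, 292 bases of the annotated transcript follow the tract, and in Neat1 the annotated transcript stops at it. These 11 letters occurred in the longest transcript of 176 of 14616 tested genes (1.20%), so they are rare but not particular to this pair, and a match is a description of letters and not of a structure.

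The ends of Meg3, Mirg and Miat, which lack the A-rich tract in their longest transcripts, are shown for comparison. The last 120 bases of those vM21 transcripts are given with the polyadenylation signal AATAAA in capitals where it occurs in the last 50 bases.
Meg3: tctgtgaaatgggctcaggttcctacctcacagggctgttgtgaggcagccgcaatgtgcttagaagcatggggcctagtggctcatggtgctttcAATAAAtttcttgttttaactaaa
Mirg: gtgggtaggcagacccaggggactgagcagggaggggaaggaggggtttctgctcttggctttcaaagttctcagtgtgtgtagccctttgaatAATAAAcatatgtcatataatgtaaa
Miat: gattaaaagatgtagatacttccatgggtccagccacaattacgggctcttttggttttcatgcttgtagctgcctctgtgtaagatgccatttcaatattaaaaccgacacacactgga
In the longest transcripts, AATAAA was found in the last 50 bases for Meg3, Mirg, Rian, Kcnq1ot1, Snhg11 and Malat1, and not for Neat1 and Miat. Over the longest transcripts of all tested genes, 8688 of 14616 (59.4%) had it there. The longest transcript of Malat1 thus has both the A-rich tract and, further on, a polyadenylation signal. Variants of AATAAA were not searched for, so a missing match does not mean that a signal is absent.

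Malat1, the speckle RNA, was the most abundant of the group in every library. It had 1114, 1081 and 3632 counts in cochlea replicates 1, 2 and 3, and 5691, 3312 and 2687 counts in vestibule replicates 1, 2 and 3. On the CPM scale these were 45.5, 37.5 and 124 in the cochlea against 169, 129 and 105 in the vestibule. Cochlea replicate 3 reached into the range of the vestibular libraries, above vestibule replicate 3, so the tissues overlapped. The mean was 69.1 ± 47.9 CPM (SD, n = 3) in the cochlea against 134 ± 32.1 CPM (SD, n = 3) in the vestibule. The log2 fold change (vestibule minus cochlea throughout) was 0.85 with a standard error of 0.40, and it did not pass the test (adjusted p = 0.153, quasi-likelihood F-test of edgeR, Benjamini-Hochberg over all genes tested).

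Neat1, the paraspeckle scaffold, had few counts in cochlea replicates 1 and 2 and more in cochlea replicate 3 and the vestibule. The cochlear libraries held 10, 5 and 55 counts, with exact 95% Poisson intervals of 4.80 to 18.4, 1.62 to 11.7 and 41.4 to 71.6 counts, which cover counting error only. The vestibular libraries held 777, 265 and 77 counts. In CPM, Neat1 was at 0.409, 0.174 and 1.88 in cochlea replicates 1 to 3 and at 23.1, 10.3 and 3.02 in vestibule replicates 1 to 3. Every vestibular library lay above every cochlear one, although vestibule replicate 3 was nearer to cochlea replicate 3 than to vestibule replicate 1 on the CPM scale. Neat1 rose in the vestibule with a log2 fold change of 3.72 and a standard error of 0.86 (adjusted p = 0.0123, edgeR). Reads of the long and the short Neat1 isoform were counted together and cannot be told apart in a gene count.

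**Figure D1:**
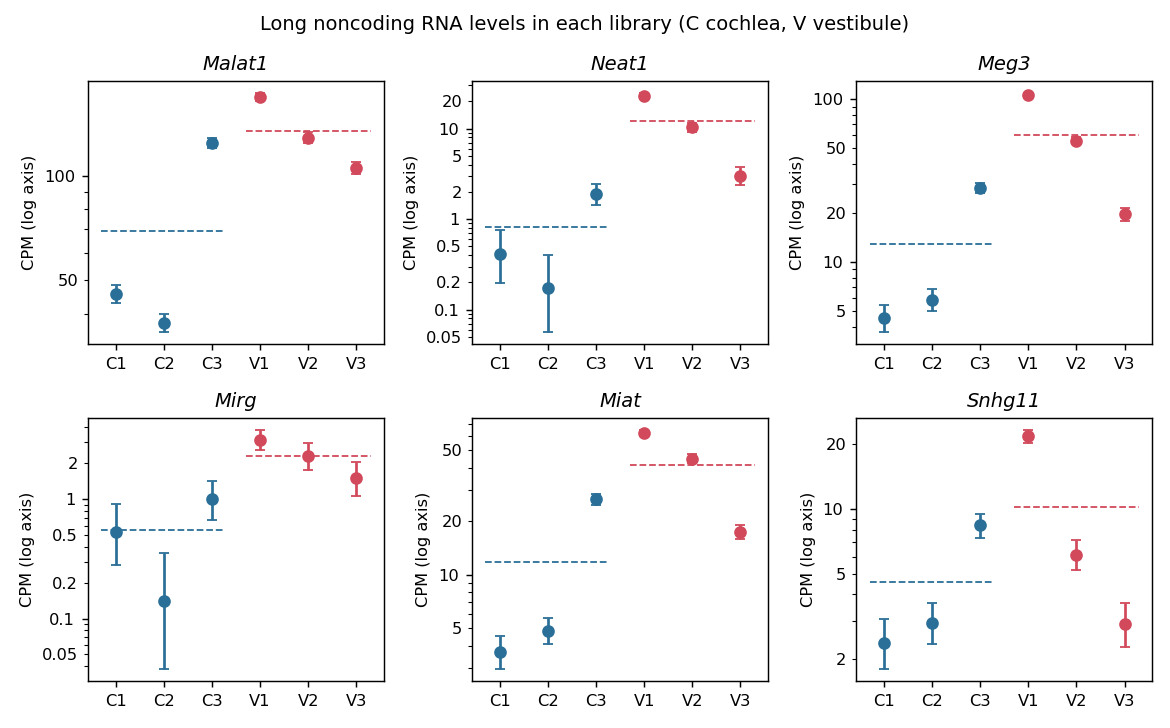
CPM of the 6 tested RNAs in each library, on a log axis for each RNA, with exact 95% Poisson intervals as bars and the mean of each tissue as a dashed line. Cochlea replicate 3 (C3) is the highest cochlear point and vestibule replicate 1 (V1) the highest point of all in each of the 6 panels, and the tissues are separate for Neat1 and Mirg.

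Meg3, the first RNA of the maternal Dlk1-Dio3 transcripts and a growth-restraining RNA, spanned a wide range in both tissues. It had 110, 168 and 834 counts in the cochlea against 3550, 1424 and 498 counts in the vestibule, or 4.50, 5.83 and 28.5 CPM and 105, 55.4 and 19.5 CPM. Cochlea replicate 3 lay above vestibule replicate 3, so the tissues overlapped. The means were 13.0 ± 13.5 CPM in the cochlea against 60.1 ± 43.1 CPM in the vestibule (SD, n = 3 each), with a log2 fold change of 2.08 and a standard error of 0.75 that did not pass the test (adjusted p = 0.0711, edgeR).

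Mirg, the miRNA-bearing RNA at the far end of the domain, was scarce throughout. Its counts were 13, 4 and 29 in the cochlea against 106, 59 and 38 in the vestibule. In CPM it was at 0.531, 0.139 and 0.992 in the cochlea against 3.15, 2.30 and 1.49 in the vestibule, and the tissues did not overlap. Mirg rose in the vestibule with a log2 fold change of 1.94 and a standard error of 0.52 (adjusted p = 0.0252, edgeR). It entered the test through the vestibule alone, with 3 vestibular and 0 cochlear libraries at 1 CPM or above, so only a gene that is higher there could have been admitted at these cochlear levels. Rian, which lies between Meg3 and Mirg, had 1 count in cochlea replicate 1 and 0 counts in the other libraries. Across the 19 other annotated rows that overlap Rian there were 0 counts in all 6 libraries, and whether the counting left out reads of this region was not tested. The 13 miRNA rows inside Mirg held 7 counts in all.

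The protein-coding genes of the same imprinted domain gave little to set beside these RNAs. Of its 4 protein-coding genes, Dlk1, which encodes a Notch-like membrane protein, and Rtl1, a gene derived from a retrotransposon, had 0 counts in every library. Dio3, the deiodinase that inactivates thyroid hormone, reached at most 0.119 CPM. Begain, a postsynaptic protein gene, was the only tested gene of the 4, at 4.95, 4.41 and 5.68 CPM in the cochlea against 9.95, 7.55 and 6.56 CPM in the vestibule. Its log2 fold change of 0.56 with a standard error of 0.20 did not pass the test (adjusted p = 0.0753, edgeR).

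The promoter of Meg3 is shown because, of the 8 RefSeq promoter windows found for 7 of the RNAs, it was the only window with a TATA box or a cyclic AMP response element. The 300 bases from 250 before to 50 after the first Meg3 start that RefSeq lists (GRCm38.p6, chr12:109540746-109541045, plus strand) are given 5′ to 3′, with 3 motifs in capitals where either strand has them. They are the TATA box (letters TATAAA), the box CCAAT and, as the cyclic AMP response element, TGACGTCA.
Meg3 promoter: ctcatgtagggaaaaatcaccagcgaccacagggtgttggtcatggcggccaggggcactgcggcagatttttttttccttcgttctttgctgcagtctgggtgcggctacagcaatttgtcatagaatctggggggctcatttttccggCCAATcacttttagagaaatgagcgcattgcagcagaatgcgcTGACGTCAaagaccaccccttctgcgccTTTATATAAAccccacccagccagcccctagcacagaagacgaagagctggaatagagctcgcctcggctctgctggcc
On either strand the TATA box was in 13.6% of 32851 promoters of this length, the CCAAT box in 37.4% and the cyclic AMP response element in 1.79%. In the Meg3 window the TATA box was matched on both strands at overlapping positions, and the other motifs did not overlap. The GC box GGGCGG, also searched and in 35.7% of promoters, had no match in this window. Among all 8 windows, 1 had the TATA box, 1 the response element, 3 the CCAAT box (Meg3, Mirg and Kcnq1ot1) and 1 the GC box (Miat), and the window at a later Meg3 start had none of the 4 motifs. A match says only that the letters are there, and no binding was measured.

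Miat followed Meg3 closely. It had 90, 140 and 780 counts in the cochlea against 2111, 1153 and 445 counts in the vestibule, or 3.68, 4.86 and 26.7 CPM and 62.7, 44.9 and 17.5 CPM. Again cochlea replicate 3 lay above vestibule replicate 3. The means were 11.7 ± 13.0 and 41.7 ± 22.8 CPM (SD, n = 3 each), and the log2 fold change of 1.70 with a standard error of 0.71 did not pass the test (adjusted p = 0.114, edgeR).

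Snhg11, the snoRNA host, had its spread mainly in the vestibule. It had 58, 85 and 245 counts in the cochlea against 733, 157 and 74 counts in the vestibule, or 2.37, 2.95 and 8.38 CPM and 21.8, 6.11 and 2.90 CPM. Vestibule replicates 2 and 3 both lay below cochlea replicate 3, and vestibule replicate 3 also lay below cochlea replicate 2. The means were 4.57 ± 3.32 and 10.3 ± 10.1 CPM (SD, n = 3 each), with a log2 fold change of 1.02 and a standard error of 0.70 (adjusted p = 0.314, edgeR). The 2 snoRNA rows inside the locus held 3 counts in all.

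In total 2 of the 6 tested RNAs, Neat1 and Mirg, rose in the vestibule and 0 fell by edgeR. Mirg, with 0 cochlear libraries at 1 CPM or above, and Neat1, with 1, could pass the filter only with the vestibular libraries, where both were high, so the count is a description and not support for a direction. By DESeq2 with adjustment it was 2 higher and 0 lower, where 16.8% and 13.8% of all genes tested were. At an unadjusted p under 0.05 it was 4 higher and 0 lower. Counts at an unadjusted p, here and below, have no share of all genes beside them and are descriptions only. Over all 14723 genes tested, 15.8% were called higher in the vestibule, 11.6% higher in the cochlea against 27.4% in either direction. Libraries of the vestibule lay above all those of the cochlea for the same 2 RNAs of 6, beside 27.5% of all genes tested, and cochlear libraries lay above all vestibular ones for none, beside 14.3%. The median log2 fold change of the 6 RNAs was 1.82, against 0.0048 over all genes tested and 0.16 over the 490 other tested genes with a lncRNA biotype, of which 66 were called higher in the vestibule and 57 higher in the cochlea. The members were picked for their spread between replicates, and that spread is the error of this test, so a missed threshold is no sign of equal levels. In tissue of mixed cells, fewer cells of a type and less RNA per cell cannot be told apart.

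The calls turned on single libraries. Without cochlea replicate 3, 5 of the 6 RNAs passed the test as higher in the vestibule, where 18.5% of all genes passed in that direction. Malat1 then had a log2 fold change of 1.55 (adjusted p = 0.000605, edgeR), Meg3 3.37 (adjusted p = 0.00403), Miat 3.12 (adjusted p = 0.00183), Mirg 2.68 (adjusted p = 0.00545) and Neat1 5.24 (adjusted p = 0.00364), and Snhg11 did not pass. The calls of Neat1 and Mirg were not held by every set of 5 libraries. Neat1 missed the threshold without cochlea replicate 2 (adjusted p = 0.0535, edgeR), where only Mirg passed (adjusted p = 0.0490). Mirg missed it without cochlea replicate 1 (adjusted p = 0.0747, edgeR), vestibule replicate 1 (0.0814) or vestibule replicate 2 (0.0606), and in these only Neat1 passed. Without vestibule replicate 1 Neat1 had an adjusted p of 0.0367 (edgeR), and Snhg11 changed sign to a log2 fold change of -0.11 (adjusted p = 0.92).

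**Figure D2:**
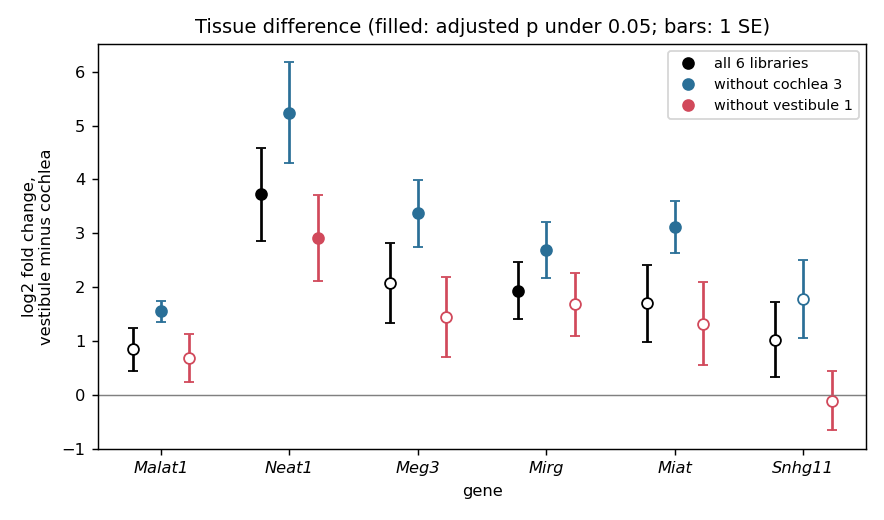
Log2 fold change between the tissues (vestibule minus cochlea) of each tested RNA with all 6 libraries, without cochlea replicate 3 and without vestibule replicate 1; bars are 1 standard error and filled points passed an adjusted p of 0.05 in edgeR's test. With all libraries Neat1 (3.72) and Mirg (1.94) are filled, without cochlea replicate 3 all but Snhg11 are, and without vestibule replicate 1 Neat1 alone is.

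Levels of different genes are compared per length, with the deposited log2 RPKM (log2 of reads scaled to gene length and library size). Mean log2 RPKM in the vestibule ran from Malat1 at 4.24 over Miat at 1.98, Meg3 at 1.43, Snhg11 at -0.22 and Neat1 at -1.21 to Mirg at -1.71. In the cochlea the means were 3.10 for Malat1, -0.25 for Miat, -0.99 for Meg3, -1.13 for Snhg11, -4.08 for Mirg and -5.31 for Neat1. Malat1 was highest and Miat was above Meg3 in 6 of 6 libraries. Meg3 and Snhg11 had no fixed order, with Meg3 higher in 4 of 6, and neither had Mirg and Neat1, with Mirg higher in 4 of 6. RPKM uses a single length per gene, and reads of the short and the long Neat1 isoform were counted together. The place of Neat1 in these orders thus depends on the length used.

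The spread, by which these RNAs were picked, was large beside that of other genes. The SD of log2 CPM within tissues was 1.58 for Neat1, 1.34 for Meg3, 1.28 for Miat, 1.24 for Snhg11, 1.04 for Mirg and 0.70 for Malat1. The median over the 6 was 1.26, over all genes tested 0.22, over the 11938 tested genes within the CPM range of the 6 also 0.22, and over the 490 other lncRNAs 0.35. Malat1 had the narrowest spread of the group and still exceeded 95.9% of all genes tested, and Neat1 exceeded 99.8%. In the cochlea the highest library exceeded the lowest 10.8-fold for Neat1, 7.25-fold for Miat, 7.15-fold for Mirg, 6.35-fold for Meg3, 3.54-fold for Snhg11 and 3.31-fold for Malat1. In the vestibule the ratio was 7.64 for Neat1, 7.50 for Snhg11, 5.39 for Meg3, 3.59 for Miat, 2.11 for Mirg and 1.60 for Malat1. Over all genes tested the median ratio was 1.34 in the cochlea against 1.28 in the vestibule.

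**Figure D3:**
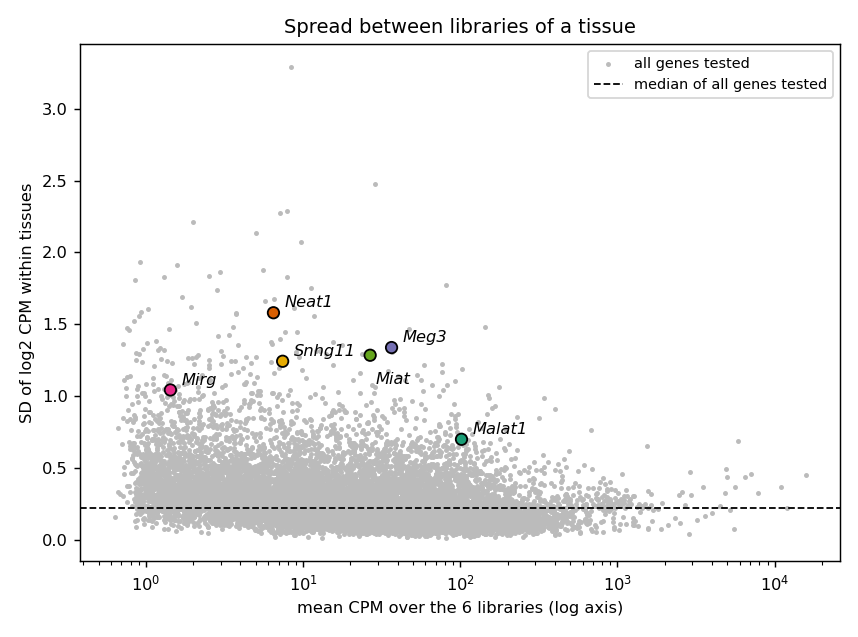
SD of log2 CPM within tissues against mean CPM over the 6 libraries (log axis), with 1 grey point for each of the 14723 genes tested and the lncRNAs in colour. The 6 RNAs, picked for this spread, lie between 0.70 (Malat1) and 1.58 (Neat1), above the dashed median of 0.22.

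The libraries that were high were the same for all 6 RNAs. The RNAs were picked for their spread over these same libraries, so the shared order is a description. The shares below are over genes that spread less as a set, and genes of like spread were not counted. Cochlea replicate 3 was the highest cochlear library for 6 of 6, as for 41.9% of all genes tested and 62.7% of the other lncRNAs. The order vestibule replicate 1 above 2 above 3 held for 6 of 6, as for 37.5% of all genes and 30.0% of the other lncRNAs. Both held together for 6 of 6, as for 22.9% of all genes and 21.8% of the other lncRNAs. The reverse of both was found for none of the 6 and for 11.6% of all genes. The lower cochlear libraries had no common order, since replicate 2 exceeded replicate 1 for Meg3, Miat and Snhg11 and fell short of it for Malat1, Neat1 and Mirg. After each tissue's mean of log2 CPM was subtracted, the 15 pairs of RNAs had correlations over the 6 libraries from 0.62 (Mirg and Snhg11) to 0.99 (Meg3 and Miat), with a median of 0.89. These are given as descriptions, because the points share their libraries and the RNAs were picked for large deviations.

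**Figure D4:**
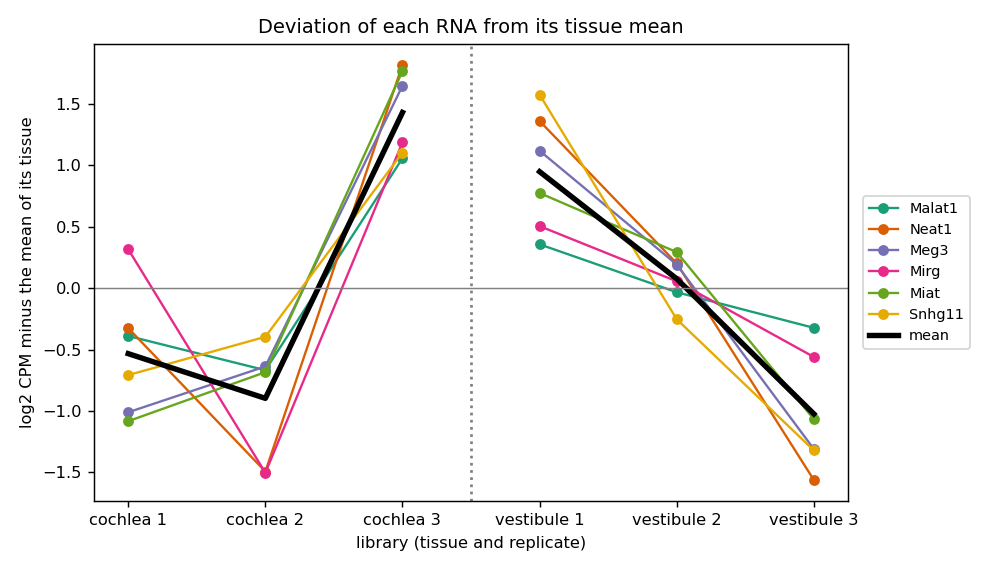
Log2 CPM of each RNA minus the mean of its tissue, by library, with the mean of the 6 RNAs in black. Lines join the values of 1 RNA and imply no order among replicates. All 6 RNAs are highest in cochlea replicate 3 within the cochlea and in vestibule replicate 1 within the vestibule.

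The share of reads that fell in no annotated gene differed between the libraries as well, in part in the same order. It was 4.30%, 4.73% and 7.45% of all listed counts in cochlea replicates 1, 2 and 3, and 6.85%, 7.00% and 5.77% in vestibule replicates 1, 2 and 3. The summed level of the group was 57.1, 51.5 and 191 CPM in the cochlea against 385, 248 and 149.9 CPM in the vestibule. Within the cochlea both measures were highest in replicate 3, and within the vestibule both were lowest in replicate 3. They differed in that vestibule replicate 2 and not 1 had the highest share within its tissue, and cochlea replicate 3 exceeded every vestibular library in that share but only vestibule replicate 3 in the summed CPM. The part of reads outside genes in these differences was not tested.

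The proteins of the compartments that Malat1 and Neat1 belong to were compared by the same order of libraries. Of 22 nuclear speckle protein genes, 12 had both cochlea replicate 3 highest and the vestibular order 1, 2, 3, and 0 had the reverse. Of 18 paraspeckle protein genes, 5 had it and 3 had the reverse, and over all genes tested the shares were 22.9% and 11.6%. The lists were chosen with results known, and the difference between them was not tested. Acin1, a splicing-associated protein gene, was at 33.2, 46.8 and 83.3 CPM in the cochlea against 183, 115 and 54.9 CPM in the vestibule, and Son, a core protein of speckles, was at 240, 291 and 369 CPM and 495, 342 and 212 CPM. Both were singled out after their values were seen.

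The genes of the compartment proteins were also compared between the tissues. Among the speckle genes 2 of 22 rose in the vestibule and 0 fell, with a median log2 fold change of 0.25, where 15.8% of all genes tested rose and 11.6% fell. By DESeq2 5 rose and 0 fell, where 16.8% and 13.8% of all genes did, and at an unadjusted p under 0.05 the counts were 6 and 0. The genes called by edgeR were Clk1, a kinase of splicing factors, with a log2 fold change of 1.27 (adjusted p = 0.0467, edgeR), and Tra2a, a splicing regulator, with 0.41 (adjusted p = 0.0451, edgeR). Among the paraspeckle genes 0 of 18 rose and 1 fell by edgeR, against 1 and 2 by DESeq2 and 1 and 3 at an unadjusted p under 0.05, with a median of -0.09. The gene called by edgeR was Rbm12, an RNA-binding protein gene, with -0.69 (adjusted p = 0.00564, edgeR). Neat1 thus stood 3.72 higher in the vestibule on the log2 scale while its partner protein genes Nono, at -0.11, and Sfpq, at 0.03, did not pass the test; both were named after their values were seen.

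The genes next to Malat1 and Neat1 on chromosome 19 were also compared between the tissues. Of 7 tested neighbours 1 rose in the vestibule (15.8% of all genes tested did), the mitochondrial carrier gene Slc25a45, with a log2 fold change of 1.38 (adjusted p = 0.00507, edgeR), and 0 fell by edgeR, beside 11.6% of all genes. It was at 2.62, 1.49 and 3.08 CPM in the cochlea against 6.45, 6.93 and 6.75 CPM in the vestibule, without the high vestibule replicate 1 of the lncRNAs. The median log2 fold change of the 7 was 0.09.

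The imprinted genes around Kcnq1ot1 could be measured although the RNA itself could not. Of 10 tested genes 2 rose in the vestibule and 3 fell (15.8% and 11.6% of all genes tested), with a median log2 fold change of -0.07. Kcnq1, a potassium channel subunit that carries potassium into the endolymph, rose by 1.61 on the log2 scale (adjusted p = 0.000319, edgeR), from 15.0, 17.7 and 11.6 CPM in the cochlea to 50.6, 46.8 and 50.2 CPM in the vestibule. Cdkn1c, an inhibitor of the cell cycle that the antisense RNA silences on the paternal chromosome, had a log2 fold change of -0.78 (adjusted p = 0.0139, edgeR), Tnfrsf22, a decoy receptor gene, -0.71 (adjusted p = 0.0177) and Trpm5, a cation channel gene, -0.90 (adjusted p = 0.00216). Kcnq1ot1 overlaps Kcnq1 on the other strand, and the strand setting of the counting is not given in the sources used here, so their reads cannot be told apart.

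An annotation tag for host genes of noncoding RNAs was not used in the selection. Annotation vM21 gives it to 7 of the 8 RNAs, all but Kcnq1ot1, against 1286 of 14616 tested genes (8.80%). Malat1, Neat1 and Miat carry the tag although 0 miRNA and 0 snoRNA rows of the count files lie inside them. The 50 other tested lncRNAs with this tag had a median SD of log2 CPM within tissues of 0.34, close to the 0.35 of other lncRNAs, and 15 of them (30.0%) had both orders of libraries. Of a list of 11 tested snoRNA host genes 1 rose in the vestibule and 1 fell (15.8% and 11.6% of all genes tested). Their median log2 fold change was 0.07. Both orders of libraries held for 2 of the 11, beside 22.9% of all genes tested. Snhg20 rose by 1.81 on the log2 scale (adjusted p = 0.00509, edgeR) and Zfas1 had -0.72 (adjusted p = 0.0281, edgeR).

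Some genes outside the group followed it closely over the 6 libraries. Among 597 tested genes with a spread at least that of Malat1, the mean deviation of the 6 RNAs was matched best by 4933427D14Rik and Zan (r = 0.996 each), Mamdc4 (0.995), Nlrc3 (0.994), Per3 (0.993), Ap1g2 (0.989), an unnamed row (0.989), Ccnl2 (0.989), Zgrf1 (0.988) and Leng8 (0.988). Of these 10, 9 are annotated as protein coding, so the profile was not one of lncRNAs alone. Per3, a component of the circadian clock, was at 24.6, 18.4 and 63.0 CPM in the cochlea against 100.0, 73.3 and 35.7 CPM in the vestibule. Ccnl2, a cyclin of the nuclear speckles, was at 29.4, 27.8 and 66.5 CPM and 152, 101 and 55.9 CPM. Leng8 was at 24.6, 23.4 and 86.8 CPM and 201, 112 and 45.4 CPM. For Neat1 by itself the best matches were Per3 (0.992) and Pabpn1 (0.988), the nuclear poly(A)-binding protein, and for Miat they were Cep112it (0.999) and Snapc4 (0.998). The coefficients are the highest of many over 6 libraries that share their depth, and they are given as a description.

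Messenger RNAs made in mitochondria had the libraries in the other order. Their summed level was 82867, 64889 and 57087 CPM in the cochlea against 34190, 61342 and 66312 CPM in the vestibule, lowest in cochlea replicate 3 and vestibule replicate 1. Of the 12 tested, 10 had the reverse of both orders, beside 11.6% of all genes tested. By edgeR 0 rose in the vestibule and 0 fell, where 15.8% and 11.6% of all genes tested did. The counts were also 0 at an unadjusted p under 0.05 and by DESeq2, and the median log2 fold change was -0.42. The 2 with the highest CPM were mt-Co1, a subunit of cytochrome oxidase, with -0.50 (adjusted p = 0.324, edgeR) and mt-Co3, another subunit, with -0.53 (adjusted p = 0.199, edgeR). The part of this shift in the levels of the lncRNAs was not tested.

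**Figure D5:**
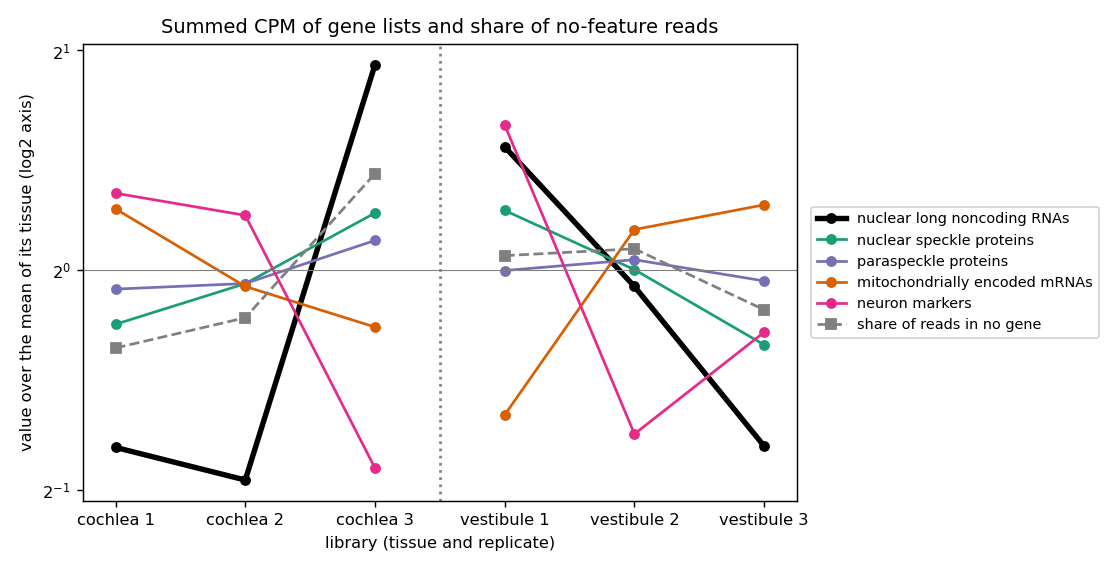
Summed CPM of the lncRNAs and of 4 other gene lists, and the share of reads in no gene, each over the mean of its tissue (log2 axis), by library; lines join the values of 1 list and imply no order among replicates. The lncRNAs (57.1 to 191 CPM in the cochlea, 149.9 to 385 CPM in the vestibule) and the speckle protein genes peak in cochlea replicate 3 and vestibule replicate 1, where the mitochondrial mRNAs are lowest.

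The markers of the cells in these samples give the setting of the lncRNA levels. For comparison, 15.8% of all genes tested rose in the vestibule and 11.6% fell by edgeR. All 13 hair cell markers were tested, of which 6 rose in the vestibule and 3 fell, among them Gfi1, a transcription factor of hair cells, with a log2 fold change of 2.19 (adjusted p = 2.77e-05, edgeR), Ush1c, a scaffold of the hair bundle, with 2.37 (adjusted p = 0.000116), Otof, the calcium sensor of the hair cell synapse, with 2.08 (adjusted p = 0.000814), and Pvalb, a calcium buffer, with -2.39 (adjusted p = 0.00238). Of 10 supporting cell markers 0 rose and 6 fell, led by Fgfr3, a receptor of cochlear supporting cells, at -4.29 (adjusted p = 5.79e-06, edgeR) and Hes5, a Notch target, at -3.43 (adjusted p = 0.000109). The summed hair cell markers spanned 803.5 to 952.5 CPM in the cochlea against 1302 to 1619 CPM in the vestibule. Over the mean of its tissue, this sum ran from 0.90 to 1.07 in the cochlea and from 0.91 to 1.13 in the vestibule. For the sum of the lncRNAs the values were 0.52 to 1.91 and 0.57 to 1.48. The lncRNAs were picked for a wide spread, so their wider range is no finding.

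Several of these lncRNAs are best known from neurons, and the neuron markers had the libraries in another order. Of 18 tested neuron markers 0 rose in the vestibule and 10 fell by edgeR (15.8% and 11.6% of all genes tested), with a median log2 fold change of -1.82. By DESeq2 1 rose and 11 fell, and at an unadjusted p under 0.05 the counts were 1 and 13. Examples are Elavl4, a neuronal RNA-binding protein, at -2.53 (adjusted p = 0.00448, edgeR), Tubb3, a neuronal tubulin, at -2.54 (adjusted p = 0.0222), Mapt, the microtubule protein tau, at -2.42 (adjusted p = 0.0205), and Scn9a, a sodium channel gene, at -2.39 (adjusted p = 0.00871). Their summed level was 1002, 934.8 and 421.2 CPM in the cochlea against 498.9, 188.3 and 259.7 CPM in the vestibule. Cochlea replicate 3, highest for the lncRNAs, was the lowest cochlear library for this sum, while vestibule replicate 1 was the highest vestibular one for both. By single genes, 1 of the 18 markers had cochlea replicate 3 as its highest cochlear library, and 16 of the 18 had vestibule replicate 1 as the highest vestibular one.

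Markers of other cells also differed between the tissues. Over all genes tested, 15.8% rose in the vestibule and 11.6% fell by edgeR. Of 7 macrophage markers 7 rose in the vestibule and 0 fell (82.3 to 97.9 CPM summed in the cochlea against 325 to 349 CPM in the vestibule), with Csf1r, the receptor that macrophages need, at 1.87 (adjusted p = 1.14e-05, edgeR). Of 5 endothelium markers 4 rose and 1 fell, with Kdr, a receptor for vascular growth factor, at 3.60 (adjusted p = 5.56e-06, edgeR) and Emcn, an endothelial sialomucin gene, at -1.80 (adjusted p = 3.72e-05). Of 10 Schwann cell markers 4 rose and 0 fell, with Mbp, a protein of the myelin sheath, at 1.16 (adjusted p = 0.00936, edgeR), and of 8 mesenchyme markers 4 rose and 1 fell, with the collagen gene Col1a1 at 1.55 (adjusted p = 0.000267). Skeletal muscle markers stood out in cochlea replicate 3, where they summed to 303.3 CPM against 4.66 and 8.89 CPM in the other cochlear libraries and 10.0 to 28.7 CPM in the vestibule. Of this list, 4 of 10 were tested and 0 passed by edgeR or DESeq2 (1 was lower in the vestibule at an unadjusted p under 0.05). Acta1, a muscle actin, had 147 CPM in cochlea replicate 3, and Tnnc2 was at 0 in every library. Red blood cell markers spanned 293.2 to 738 CPM in the cochlea against 477.3 to 639.8 CPM in the vestibule, and 0 of the 6 tested passed by edgeR, by DESeq2 or at an unadjusted p under 0.05. The part of these cells in the lncRNA levels was not tested.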

How the data were processed

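Libraries from the cochlear and vestibular sensory epithelium (n = 3 each) were grouped by their tissue labels. The authors aligned read pairs with TopHat2 2.1.0 to GRCm38 and counted them per Ensembl gene with HTSeq 0.5.4p5, per the submitters' processing notes, which also name SAMtools 0.1.18 and edgeR 3.4.2; the deposited counts are not normalized, and the strand setting is not given in the sources used here. The authors also deposited log2 RPKM for 14722 genes, used here only to compare levels between genes. The 5 summary lines of each count file (18.5% to 20.6% of listed counts, such as reads in no gene or in several) were left out of library sizes and of the fit. A level of 1 CPM was 24.5 to 33.7 counts.

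The genes kept had 1 CPM or above in no fewer than 3 libraries. They entered a quasi-likelihood fit in edgeR 4.0.16 (R 4.3.3, limma 3.58.1), TMM-scaled and without a block, and p-values were adjusted after Benjamini and Hochberg (FDR 0.05); log2 CPM used a prior count of 0.5. Alternatives (25 planned and 1 added after seeing the data) covered DESeq2 1.42.0, scaling, the filter, a replicate block and each library left out. The members and lists (speckle and paraspeckle proteins, domain and neighbouring genes, other lncRNAs, snoRNA hosts, RNAs without poly(A) tails, mitochondrial mRNAs, immediate early genes and cell type markers) were chosen with earlier results of these data known. Named were all 8 members; the up to 4 called genes of each list with the largest change, of which the text gives some, or the 2 with the highest CPM; and the 10 genes most like the members' mean profile, with up to 3 per member. The values of 1 gene under this rule are not reported here. Genes singled out otherwise are marked where they appear. Coordinates are GENCODE vM21 (GRCm38), not the release counted on, and 37607 of 39179 gene rows had a vM21 identifier; the promoter is from RefSeq (GRCm38.p6). Single outlying libraries were not tested, since each tissue has 3. Figures used Python 3.11.15 and matplotlib 3.10.9.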

Additional observations from a re-analysis of the deposited data

How the results depend on the processing

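Of the 6 RNAs, 2 were called higher in the vestibule, and the count was also 2 with DESeq2's size factors in edgeR, with library size alone, with library size from all listed counts, with library size without the group and with DESeq2 itself. In these settings 15.1% to 18.7% of all genes tested were called higher in the vestibule. The count was 4 without the filter on low counts, where Meg3 (adjusted p = 0.00928, edgeR) and Miat (adjusted p = 0.0255) were added. Without the filter 11.3% of all genes were called higher in the vestibule. With the replicate number as a block the count of RNAs was 0, with adjusted p-values (edgeR) of 0.0638 for Neat1 and 0.0643 for Mirg. At an unadjusted p under 0.05 it was 3. With this block 2618 genes were called in place of 4036, and 10.9% of all genes were higher in the vestibule. Same-numbered libraries did not deviate together (correlations of -0.18, -0.26 and -0.48 over genes for numbers 1, 2 and 3), so the numbers were not taken to pair the samples. Leaving out 1 library gave 1 to 5, namely 5 without cochlea replicate 3, 3 without vestibule replicate 3 and 1 without each of the other 4 in turn, where 18.5%, 15.6% and 11.3% to 12.6% of all genes were called higher in the vestibule; without both cochlea replicate 3 and vestibule replicate 1, an alternative chosen after seeing the data, it was 5. With both of these left out, 16.5% of all genes were called higher in the vestibule. The genes called over the whole table were 2655 without vestibule replicate 2 and 4713 without cochlea replicate 3. Library size alone gave all genes a median shift of 0.13 on the log2 scale and moved the calls to 2754 higher in the vestibule and 1251 in the cochlea, against 2325 and 1711. The log2 fold changes without 1 library ran from 0.57 to 1.55 for Malat1, 2.91 to 5.24 for Neat1, 1.45 to 3.37 for Meg3, 1.49 to 2.68 for Mirg, 1.28 to 3.12 for Miat and -0.11 to 1.78 for Snhg11, which changed sign to -0.11 without vestibule replicate 1. The median ratio of the highest to the lowest library ran from 1.31, without cochlea replicate 3, to 5.19 in the cochlea with 1 library left out, and from 1.65, without vestibule replicate 3, to 4.49 in the vestibule. Other scalings kept the order of libraries in 6 of 6 RNAs. Depth limits Neat1 and Mirg in the cochlea, at 4 to 55 counts a library. The causes of these shifts were not tested.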

Other observations

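Xist, the RNA that coats the inactive X chromosome, and Firre, another nuclear lncRNA of the X chromosome, showed the same order of libraries as the 6 RNAs above; both were singled out from the list of other lncRNAs after their values were seen. Xist was at 29.4, 36.5 and 203 CPM in cochlea replicates 1, 2 and 3, and at 391, 142 and 53.5 CPM in vestibule replicates 1, 2 and 3. Firre was at 0.899, 1.42 and 8.96 CPM in the cochlea against 37.0, 15.3 and 3.30 CPM in the vestibule. Neither passed the test between the tissues, with log2 fold changes of 0.99 (adjusted p = 0.41, edgeR) and 2.15 (adjusted p = 0.125, edgeR). The animals were pooled males and females. The summed level of 4 genes of the Y chromosome (Ddx3y, Eif2s3y, Kdm5d and Uty), also chosen after the values of Xist were seen, was 79.1, 65.4 and 61.2 CPM in the cochlea against 95.1, 64.6 and 80.5 CPM in the vestibule. Within the vestibule both Xist and this sum were thus highest in replicate 1, and in the cochlea the library with the highest Xist had the lowest sum.

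Some other lncRNAs passed the test between the tissues. Over all genes tested, 15.8% rose in the vestibule and 11.6% fell, and these shares are the background of each list below. Of 13 tested in the list of other lncRNAs 1 rose in the vestibule and 2 fell, with a median log2 fold change of -0.17. The order of libraries of the 6 RNAs held for 5 of the 13, beside 22.9% of all genes tested. Dlx6os1, which runs antisense through the Dlx5 and Dlx6 locus, so that its reads cannot be told from theirs without the strand setting, was at 0, 0.139 and 0.342 CPM in the cochlea against 4.52, 4.01 and 3.41 CPM in the vestibule, with a log2 fold change of 4.41 (adjusted p = 0.000554, edgeR). At these cochlear levels Dlx6os1 could pass the filter only through the vestibule, where it was high, so its call is no support for a direction. Crnde reached 26.9 CPM in the cochlea against 8.23 CPM at most in the vestibule, without overlap, with -1.94 (adjusted p = 0.000399, edgeR), and Pantr1 had -1.39 (adjusted p = 0.000175, edgeR). Of 3 tested RNAs known to lack a poly(A) tail, 1 rose in the vestibule and 0 fell, with a median of -0.21; it was the histone gene Hist1h1c, with 1.55 (adjusted p = 0.0288, edgeR). Of 10 tested immediate early genes 1 rose and 2 fell, with a median of 0.33; Dusp1, a phosphatase gene, had 0.94 (adjusted p = 0.0472, edgeR), Btg2 -0.65 (adjusted p = 0.0159) and Ier2 -0.48 (adjusted p = 0.0378).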
